A study of Brachypodium distachyon with 6 samples.

Results

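The 3 genes described here are the cellulose synthases of the secondary wall in the grass Brachypodium distachyon: CESA4 (BRADI_3g28350v3), CESA7 (BRADI_4g30540v3) and CESA8 (BRADI_2g49912v3). They were taken by locus identifier and are 3 of the 29627 features counted. The rule itself uses no measured value, but it was proposed with earlier results of these data known, so the choice was not independent of them. The names come with that choice: the deposited table gives identifiers only, and none of these 3 loci matched an entry of the RefSeq gene table, so the names could not be checked against an annotation. Messenger RNA of whole roots of the inbred line Bd21 was sequenced in 3 libraries from plants fed nitrate and 3 from plants fed ammonium. All plants were moved to hydroponics at 7 days of age and then received 2.5 mM nitrogen for 19 days in tanks of 4.5 L. The nitrate group was given 1.25 mM Ca(NO3)2 and the ammonium group 1.25 mM (NH4)2SO4. These salts differ in calcium and sulfate as well as in the form of nitrogen. Whether the rest of the solution evened out calcium or sulfate was not established here. Each library was made from 12 pooled seedlings. Both groups shared the line, the tissue and the total nitrogen, and the labels name no transgene or mutation. No group without nitrogen, or with both forms, was analysed here, so a fall under ammonium and a rise under nitrate cannot be told apart. Directions are given from nitrate to ammonium.

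Cellulose is made at the plasma membrane by complexes of CESA proteins, each of which adds glucose from UDP-glucose to a growing glucan chain. Plants use one set of CESA isoforms in the thin primary wall of growing cells and another, CESA4, CESA7 and CESA8, in the thick secondary wall laid down once a cell has stopped expanding. In Arabidopsis all of these secondary wall isoforms are needed for a working complex, and loss of any of them collapses the xylem vessels (the irregular xylem mutants); in rice, loss of the orthologues makes the culm brittle. In a root, secondary walls are typical of xylem vessels and of lignified cells around them. A whole root sample mixes these with many other cells, and in such a sample fewer cells of a type and less RNA per cell cannot be told apart. Markers of xylem or of other root cell types could not be measured beside them, because identifiers were not paired with gene names.

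All 3 secondary wall cellulose synthases fell under ammonium, to between 48.7% and 58.4% of the nitrate level. CESA7 fell the most, CESA8 by a similar amount and CESA4 the least. For each gene the highest ammonium library lay below the lowest nitrate library. Levels are given in CPM, the reads of a gene in every 1000000 counted reads of its library, after scaling of the library sizes by the TMM method.

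CESA4, an isoform of the secondary wall complex, was counted 9040, 7565 and 9256 times in nitrate replicates 1 to 3 and 5831, 4880 and 6100 times in ammonium replicates 1 to 3. In CPM these were 315.9, 291 and 407 under nitrate and 197, 175 and 220 under ammonium. The nitrate library with the lowest level stood 71.1 CPM above the ammonium library with the highest. The mean fell from 338 ± 60.9 to 197 ± 22.6 CPM (SD, n = 3 each). The log2 fold change was -0.78 (SE 0.14, 95% interval -1.09 to -0.46, edgeR quasi-likelihood test, adjusted p = 0.0025 by the Benjamini-Hochberg method), a level 1.71-fold lower under ammonium.

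CESA7, the second isoform, was counted 9569, 7855 and 9473 times under nitrate and 5292, 4318 and 4966 times under ammonium. Its levels were 334, 303 and 417 CPM in the nitrate libraries and 178, 155 and 179 CPM in the ammonium libraries. The ammonium libraries lay close together, with replicates 1 and 3 nearly equal, while nitrate replicate 3 stood above the other nitrate libraries. The mean fell from 351 ± 58.8 to 171 ± 13.9 CPM (SD, n = 3 each). The log2 fold change was -1.04 (SE 0.13, 95% interval -1.33 to -0.75, edgeR adjusted p = 0.00033), a 2.05-fold lower level.

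CESA8, the third isoform, was counted 10694, 8404 and 9777 times under nitrate and 5926, 4882 and 5631 times under ammonium. This corresponds to 374, 324 and 429.9 CPM in the nitrate libraries and 199.8, 175 and 203 CPM in the ammonium libraries. Again the groups did not overlap, with a gap of 120.4 CPM between them. The mean fell from 376 ± 53.1 to 193 ± 15.4 CPM (SD, n = 3 each). The log2 fold change was -0.96 (SE 0.12, 95% interval -1.23 to -0.70, edgeR adjusted p = 0.00033), a 1.95-fold lower level.

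**Figure D1:**
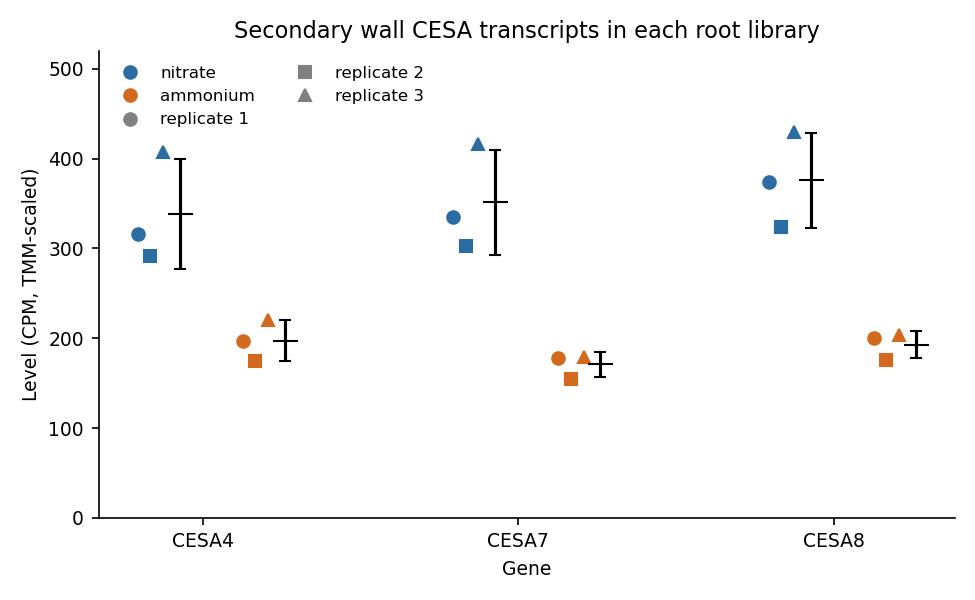
Level of each gene in each library, in CPM with TMM-scaled library sizes (vertical axis, from 0); colours mark the nitrogen source, symbols the replicate number, and black bars the mean and SD of 3 libraries. Every ammonium library lies below every nitrate library for all 3 genes, and replicate 3 is the highest library of each treatment.

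Changes of this kind were common in these roots. Of the 23694 features that passed the filter on low counts, 41.4% were called in either direction at an adjusted p under 0.05, and 22.2% were called lower. The share whose ammonium libraries all lay below the nitrate libraries was 27.8%. Among the 2189 features whose mean reached 100 CPM, the class that holds all 3 genes, 32.7% were called lower. A call in the direction found here is thus not rare for a single gene of this abundance.

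The median log2 fold change was -0.96 for the 3 genes, 0.00 for all tested features (interquartile range -0.35 to 0.30) and -0.10 for those whose mean reached 100 CPM (interquartile range -0.38 to 0.20). A fall at least as large as that of CESA7 was measured for 7.28% of all tested features and 6.03% of those whose mean reached 100 CPM. The corresponding shares were 8.39% and 7.35% for CESA8, and 11.7% and 11.3% for CESA4. The genes were thus in the lower tail of the distribution, well short of its end.

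**Figure D2:**
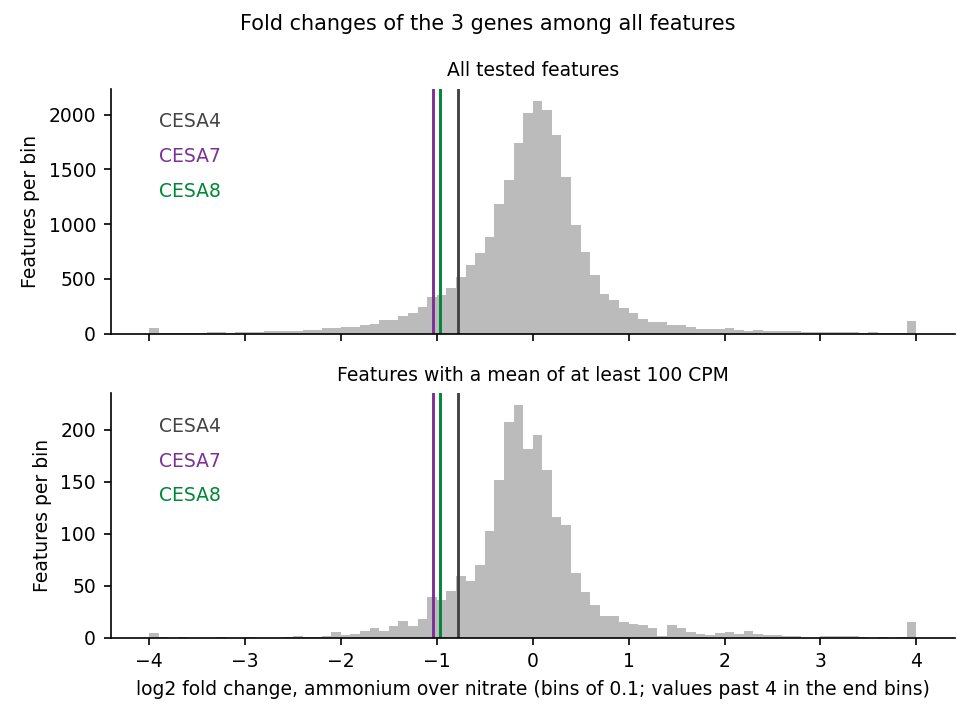
Number of features (vertical axis) by log2 fold change, ammonium over nitrate (horizontal axis), for the 23694 tested features (top) and the 2189 whose mean reached 100 CPM (bottom); coloured lines mark CESA4, CESA7 and CESA8. The 3 lines lie between -1.04 and -0.78, left of the bulk of the features but inside the left tail.

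The summed level of the 3 genes was 1024, 918 and 1254 CPM in nitrate replicates 1 to 3 and 575, 505 and 603 CPM in ammonium replicates 1 to 3. The mean sum under ammonium was 52.7% of that under nitrate. As a share of all reads counted to features, the 3 genes together held 0.101%, 0.0907% and 0.127% of the nitrate libraries and 0.0577%, 0.0507% and 0.0607% of the ammonium libraries. The falls are therefore present in the raw shares as well as after scaling.

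The CESA4, CESA7 and CESA8 proteins sit in one complex, so the balance of their transcripts was compared within each library. Ratios of counts within a library need no scaling, and since gene length cancels in the change of a ratio, only that change is read here and not the order of the genes. The CESA4 to CESA7 ratio was 0.945, 0.963 and 0.977 in the nitrate libraries and 1.10, 1.13 and 1.23 in the ammonium libraries. Every ammonium library lay above every nitrate library, and the mean log2 ratio differed by 0.26 (-0.06 ± 0.02 under nitrate, 0.20 ± 0.08 under ammonium, SD, n = 3 each). Relative to CESA7, CESA4 transcripts were thus 1.20-fold more frequent under ammonium. How often the ratios of other pairs of features separate the treatments was not measured. How unusual this shift is can therefore not be told, and the same holds for the ratios below.

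The CESA4 to CESA8 ratio was 0.845, 0.9002 and 0.947 under nitrate and 0.984, 0.9996 and 1.08 under ammonium. The groups were again separate, and the mean log2 ratio was 0.19 higher under ammonium (-0.16 ± 0.08 under nitrate, 0.03 ± 0.07 under ammonium, SD, n = 3 each). The nearest libraries of the treatments, nitrate replicate 3 and ammonium replicate 1, had 95% counting intervals that overlap (0.920 to 0.974 and 0.949 to 1.02). The CESA7 to CESA8 ratio was 0.895, 0.935 and 0.969 under nitrate and 0.893, 0.884 and 0.882 under ammonium. This pair moved least, by -0.07 on the log2 scale, and the nearest libraries of the treatments (0.895 and 0.893) differed by less than counting error, since their 95% counting intervals were 0.870 to 0.9198 and 0.861 to 0.927.

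For all 3 pairs the two-sided exact permutation test over libraries gave p = 0.1 (n = 3 each), also after Benjamini-Hochberg adjustment over the 3 pairs, and 0.1 is the smallest value that 3 libraries against 3 allow. The test can therefore not pass a threshold of 0.05 in this design. Between libraries of the same number, the CESA4 to CESA7 log2 ratio was higher under ammonium by 0.22 to 0.33 and the CESA4 to CESA8 log2 ratio by 0.15 to 0.22, in 3 of 3 pairs each. For CESA7 to CESA8 it was lower in 3 of 3 pairs, by between 0.0029 and 0.14 in size (differences of -0.0029 and -0.14). The counting error of 1 log2 ratio (SE) was 0.020 to 0.030. The CESA7 to CESA8 difference of -0.0029, between the libraries numbered 1, was smaller than this error, so its direction is not established. The means of these same-numbered differences were 0.26 (SE 0.03), 0.19 (SE 0.02) and -0.07 (SE 0.04) for the 3 pairs of genes in the order given. An exact sign-flip test over the 3 library pairs gave p = 0.25 for each, again the smallest value it allows. The ratios of the treatments did not overlap. Any pairing of the libraries would therefore give 3 of 3 pairs and this sign-flip p of 0.25. The same-numbered counts add nothing to that separation. By the count ratios CESA4 fell less than CESA7 and CESA8 in these libraries, and neither exact test could pass the threshold at this number of libraries.

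**Figure D3:**
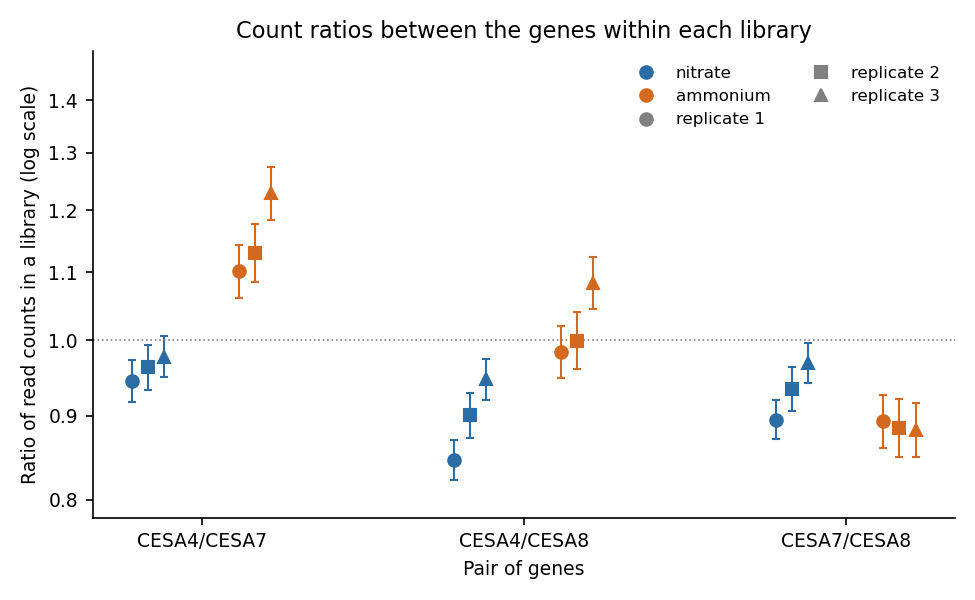
Ratio of read counts between each pair of genes within a library (vertical log axis) for nitrate and ammonium libraries; bars are 95% counting intervals and symbols the replicate number. The ratios of CESA4 to CESA7 and to CESA8 are higher in every ammonium library than in every nitrate library, while the CESA7 to CESA8 ratios of the treatments nearly touch.

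The genes also varied together from library to library. All 3 had the same order over the 6 libraries: nitrate 3, nitrate 1, nitrate 2, ammonium 3, ammonium 1 and ammonium 2, from the highest to the lowest. The places of ammonium 3 and ammonium 1 were near ties for CESA7 (179 and 178 CPM) and CESA8 (203 and 199.8 CPM). Their 95% counting intervals overlapped, so the shared order rests partly on differences within counting error. The exact order of all 6 libraries was found for 272 tested features, 1.15% of all and 4.64% of those called lower (244 features). Replicate 3 highest and replicate 2 lowest in both treatments, whatever the difference between treatments, was more common. It was found for 4.91% of all tested features and 7.49% of those whose mean reached 100 CPM. Nitrate replicate 3 stood 1.34-fold (CESA4), 1.31-fold (CESA7) and 1.23-fold (CESA8) above the mean of the other nitrate libraries. Ammonium replicate 3 stood 1.19-fold, 1.08-fold and 1.09-fold above the mean of the other ammonium libraries. The libraries numbered 3 were also apart from the rest over the whole transcriptome, at -29.7 (ammonium) and -24.3 (nitrate) on the second principal component against 10.9 to 17.4 for the other four. Its part in the levels of the 3 genes was not tested.

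The spread within a treatment was wider for these genes than for the typical abundant feature. The coefficient of variation under nitrate was 18.0% for CESA4, 16.7% for CESA7 and 14.1% for CESA8, against a median of 7.97% for features whose mean reached 100 CPM. Under ammonium it was 11.5%, 8.10% and 7.97%, against a median of 5.62%. Counting error is a small part of this: the lowest count of all, 4318 for CESA7 in ammonium replicate 2, has an exact 95% Poisson interval of 4190 to 4449. Without both libraries numbered 3, a comparison chosen after the data were seen, the log2 fold changes were -0.69 (CESA4), -0.92 (CESA7) and -0.88 (CESA8), with edgeR adjusted p of 0.00050, 0.00017 and 0.00028.

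Likeness of pattern was described by Pearson's r of log2 CPM. The 6 libraries fall into 2 treatment groups, so a high r over all of them mostly reflects a shared difference between the treatments, and no p is given. Over the 6 libraries r was 0.998 between CESA7 and CESA8, 0.986 between CESA4 and CESA7 and 0.983 between CESA4 and CESA8. Among the 23693 other tested features, CESA8 ranked 3 in likeness to CESA7, and CESA7 ranked 4 in likeness to CESA8. CESA4 was less close, ranking 80 for CESA7 and 152 for CESA8. After the mean of each treatment was removed, r was 0.979 between CESA7 and CESA8, 0.962 between CESA4 and CESA7 and 0.944 between CESA4 and CESA8. By these deviations CESA7 and CESA8 ranked 84 to 88 in likeness to each other, and the pairs with CESA4 ranked 202 to 376.

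Many other features shared the pattern. Of 16400 other features whose mean reached 5 CPM, 11.6% had an r above 0.9 with the mean log2 CPM of the 3 genes. The 20 most alike were picked by this r, which largely fixes a fall under ammonium. They had r from 0.993 to 0.999, all 20 were called lower under ammonium, and their log2 fold changes ran from -1.32 to -0.23 (median -0.48). The feature most like the cellulose synthases was BRADI_5g15480v3, with 19.3, 17.7 and 26.3 CPM in the nitrate libraries and 8.90, 7.32 and 9.10 CPM in the ammonium libraries (log2 fold change -1.32, SE 0.16, edgeR adjusted p = 0.00037). The second was BRADI_1g24567v3, with 67.0, 64.2 and 79.2 CPM under nitrate and 42.7, 39.4 and 44.9 CPM under ammonium (log2 fold change -0.73, SE 0.10, edgeR adjusted p = 0.00060). Both repeat the order of libraries seen for the 3 genes, with replicate 3 highest and replicate 2 lowest in each treatment. Having been picked by so high an r makes this order likely, so it is no separate finding. They are given by identifier, since none of the sources used here annotates them.

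The 3 genes lie on different chromosomes, read from the digit in the identifier by the naming convention of this species: CESA4 on chromosome 3, CESA7 on chromosome 4 and CESA8 on chromosome 2. Among the 5 tested loci on each side of each gene in order of locus number, 30 in all, 7 were called lower, 6 higher and 17 not called. The share called lower, 23.3%, was near the 22.2% of all tested features. Around CESA4, 1 of 10 loci was called lower and 4 higher (median log2 fold change 0.32), around CESA7 2 were lower and 1 higher (median -0.05), and around CESA8 4 were lower and 1 higher (median -0.20). These counts by gene depended on the window: with 10 loci on each side, 7 of 20 were lower and 4 higher around CESA4 (median -0.03), 3 lower and 5 higher around CESA7 (median 0.06), and 6 lower and 3 higher around CESA8 (median -0.11).

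The loci directly beside the genes moved in both directions. The locus before CESA4 rose, from 114 to 169.9 CPM (log2 fold change 0.58, SE 0.09, edgeR adjusted p = 0.00093), and the one after it did not pass the test (0.26, SE 0.18, edgeR adjusted p = 0.29). The locus before CESA7 fell from 11.8 to 4.63 CPM (-1.34, SE 0.14, edgeR adjusted p = 0.00013), and the one after it rose (0.43, SE 0.11, edgeR adjusted p = 0.014). Both loci beside CESA8 fell, the one before it from 225 to 163 CPM (-0.46, SE 0.12, edgeR adjusted p = 0.015) and the one after it from 8.62 to 4.47 CPM (-0.95, SE 0.15, edgeR adjusted p = 0.0015). Whether any of these loci overlaps its neighbour, and whether strand was used in counting, is not given in the sources used here, so reads of overlapping or antisense loci cannot be told apart. The same holds for reads that match more than 1 CESA gene, as the treatment of such reads is not given either.

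**Figure D4:**
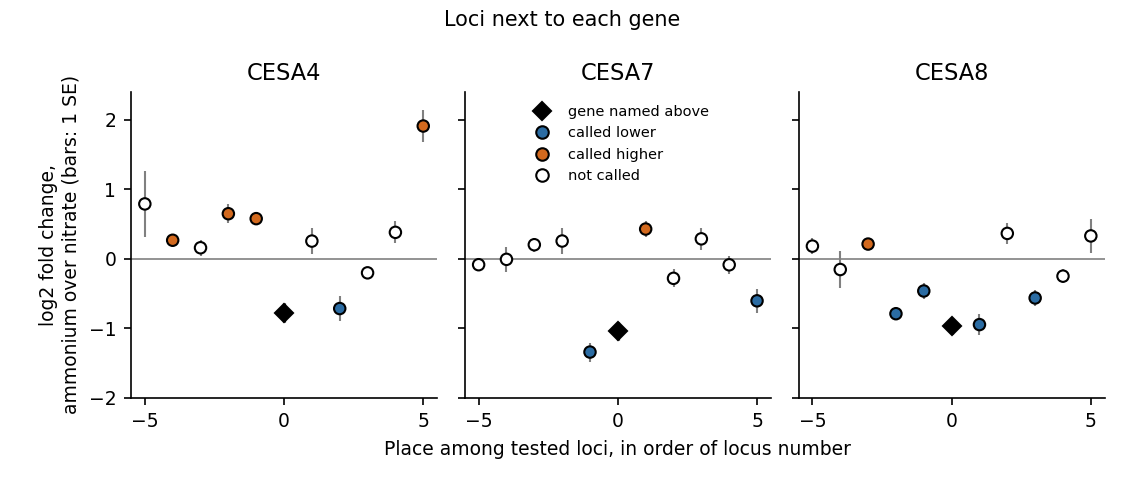
Log2 fold change, ammonium over nitrate, with 1 SE (vertical axis) of the 5 tested loci on each side of each gene, by place in order of locus number (horizontal axis); diamonds are CESA4, CESA7 and CESA8, and fill marks the call at an adjusted p under 0.05. The 30 neighbours hold 7 loci called lower and 6 called higher.

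The calls of the 3 genes did not depend on a single library. When each library was left out in turn, the log2 fold change ran from -0.87 to -0.63 for CESA4, from -1.13 to -0.90 for CESA7 and from -1.06 to -0.86 for CESA8. The smallest fall was found for all 3 genes without nitrate replicate 3, the library where they were most abundant. The highest adjusted p over these 6 edgeR fits was 0.012 for CESA4, 0.0021 for CESA7 and 0.0026 for CESA8. In each fit CESA4 had the smallest fall of the 3 genes.

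**Figure D5:**
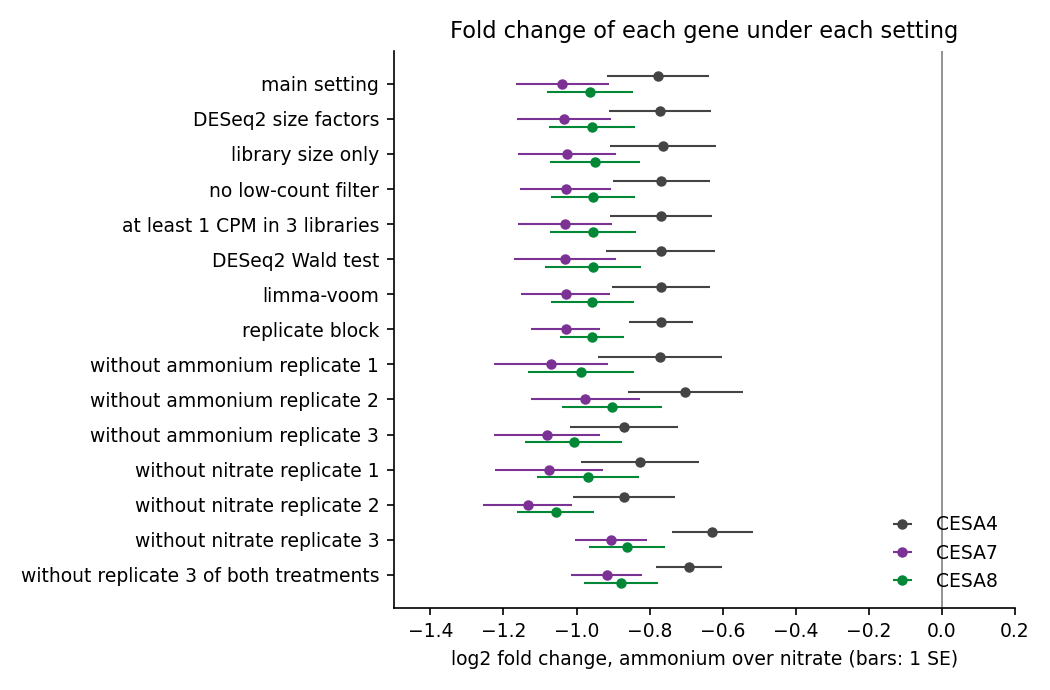
Log2 fold change, ammonium over nitrate, with 1 SE (horizontal axis) of CESA4, CESA7 and CESA8 under the main setting and each alternative (vertical axis). All values lie between -1.13 and -0.63, and CESA4 is nearest to 0 in every line.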

How the data were processed

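Read counts per feature, not normalized, were deposited for the 6 libraries in 1 table. HISAT2 and HTSeq are named in the submitters' processing notes. Their versions, the build, the annotation and the handling of strand and shared reads were not given in the sources used here. Per the labels' protocols the mRNA was captured on poly-T beads. Library totals ran from 22470936 to 29547877 counts. The labels do not name separate tanks for the pools, so p-values measure the spread between these samples, which may be partly technical. Counting intervals cover counting error only. Replicates of a treatment differed by a chi-square per degree of freedom of at least 6.84, so none was counted as a duplicate.

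Counts were fitted with edgeR 4.0.16 (quasi-likelihood F test, R 4.3.3, TMM) over all features left by filterByExpr (minimum count 10, minimum total 15; 5933 removed, all 3 genes kept), with nitrogen source as the only term and Benjamini-Hochberg adjustment. The SE is the absolute log2 fold change over the square root of F. Log2 CPM used a prior count of 2. Alternatives were DESeq2 1.42.0 size factors and Wald test, limma 3.58.1 (voom), other filters, omitted libraries and the replicate number as a block. Deviations of same-numbered libraries correlated at 0.113, 0.133 and 0.213 across features, each over 0.1, so the numbers were taken to pair the libraries; this pairing is read from the data, as the labels do not state one.

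The genes, whose rule names identifiers and no measured value, and the lists and other rules were chosen with earlier results of these data known. Named beside the 3 genes are the 2 features with the highest r to them among those with a mean of at least 5 CPM. None of the 29627 identifiers matched the RefSeq gene table (31335 genes, assembly Brachypodium_distachyon_v3.0), so 0 of 18 secondary wall gene lists planned by product name could be tested, and no sequences are shown.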

Additional observations from a re-analysis of the deposited data

How the results depend on the processing

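CESA4, CESA7 and CESA8 stayed lower under ammonium, past the threshold of 0.05, in all 14 alternatives each. Other scalings, filters and tools, the replicate block and the omission of both libraries numbered 3 gave log2 fold changes of -0.77 to -0.69, -1.03 to -0.92 and -0.96 to -0.88. With the replicate block they were -0.77 (SE 0.09), -1.03 (SE 0.09) and -0.96 (SE 0.09), and the block changed no call. The number of features called (9800; 4544 higher, 5256 lower) ran from 7103 to 10926. The changes of the count ratios kept their sign in all 8 alternatives each. The replicate block leaves the mean change the same by construction, and adding 0.5 to each count hardly moves it. Neither of these settings could have turned the sign. Nor could the omission of 1 library, since the ratios of the treatments did not overlap for any pair of genes. Only the size of the change was open to that omission. Without 1 library the changes ran from 0.21 to 0.29 (CESA4 to CESA7), 0.15 to 0.23 (CESA4 to CESA8) and -0.10 to -0.04 (CESA7 to CESA8). Summed levels under ammonium were 49.3% to 57.8% of nitrate, and 26.7% of 10 neighbours per side were called lower.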
